A study of Mus musculus with 11 samples.

Results

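The 10 genes described here, Stmn1, Iqgap3, Runx1, Lrig1, Sox2, Lgr5, Tnfrsf19, Lgr4, Axin2 and Sox9, are used to mark or trace stem and progenitor cells of the stomach. They were chosen by name, with earlier results of these data known. Each was found in 1 row of a table of 34866 genes by matching its versioned Ensembl identifier to a mouse symbol. They fall into 5 genes of isthmus progenitors (Stmn1, Iqgap3, Runx1, Lrig1, Sox2), 2 genes of stem cells at the gland base (Lgr5, Tnfrsf19) and 3 genes of the WNT pathway that act at or below the Lgr receptors (Lgr4, Axin2, Sox9). All 10 had enough counts to be tested.

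RNA from the corpus mucosa of the mouse stomach was sequenced in bulk in 11 samples. The 2 controls are labelled wild type. The 3 other groups, with 3 samples each, are named for the diphtheria toxin receptor (DTR), which makes the cells that carry it sensitive to diphtheria toxin: ATP4B-DTR, named for the proton pump subunit of acid-secreting parietal cells, GIF-DTR, named for the intrinsic factor of mouse chief cells, and GIF/ATP4B-DTR, which carries both names. The lines were made to remove chief and parietal cells selectively, and the genotype is the only difference between groups that the labels give. Strain, age, sex, toxin dose, time of collection and the way each receptor was placed under its promoter are not given in the sources used here, and the labels do not say whether the samples of a group came from separate animals. Each sample of the lines has an identifier of its own, and Y-linked expression differed within ATP4B-DTR, so that group holds more than 1 animal. The p-values below measure the spread between these samples, part of which may be technical.

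A corpus gland renews from its isthmus, where dividing progenitors give rise to pit cells above and to neck, parietal and chief cells below. Chief cells at the gland base divide rarely, but some carry Lgr5 or Tnfrsf19 (also called Troy) and can act as a reserve that returns to division after injury. WNT signalling, strengthened by R-spondins that bind Lgr4 and Lgr5, is known to maintain such reserve cells, and Axin2 is a common readout of it.

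In the GENCODE release M21 annotation of the mm10 genome, Stmn1 (ENSMUSG00000028832.11) lies at chr4:134468320-134473843 and Iqgap3 (ENSMUSG00000028068.14) at chr3:88081971-88121048, both on the plus strand. Sox2 (ENSMUSG00000074637.7) lies at chr3:34650405-34652461 on the plus strand, Runx1 (ENSMUSG00000022952.16) at chr16:92601466-92826149 on the minus strand and Lrig1 (ENSMUSG00000030029.14) at chr6:94604529-94700158 on the minus strand. Lgr5 (ENSMUSG00000020140.15) lies at chr10:115450311-115587780 and Tnfrsf19 (ENSMUSG00000060548.13) at chr14:60963875-61046490, both on the minus strand. On the plus strand are Lgr4 (ENSMUSG00000050199.13) at chr2:109917647-110014257, Axin2 (ENSMUSG00000000142.15) at chr11:108920349-108950783 and Sox9 (ENSMUSG00000000567.5) at chr11:112782224-112787760. All 10 are protein coding, and a value covers the whole gene, not a transcript.

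Promoter windows from RefSeq on GRCm38.p6, the assembly behind mm10, reach from 250 bases before to 50 bases after an annotated start and were at hand for 7 of the 10 genes, with 2 starts each for Runx1 and Tnfrsf19. There was no entry for Stmn1, Lgr5 and Sox9. Windows are shown for 2 isthmus genes whose RNA rose (Iqgap3, Sox2), for the WNT receptor Lgr4 and for the second start of the gland-base gene Tnfrsf19, so that the letters searched for can be seen in place. Capitals mark matches, on either strand, to CCAAT (the CCAAT box bound by NF-Y), TTTGAA (the cell cycle homology element of genes active in mitosis) or CTTTGA (the core of a TCF/LEF site, the DNA-bound step of WNT signalling, which shares TTTGA with the preceding motif). No match to TTTNNCGC, an E2F-like motif, was found in the 9 windows.
Iqgap3, chr3:88081801-88082100, plus strand: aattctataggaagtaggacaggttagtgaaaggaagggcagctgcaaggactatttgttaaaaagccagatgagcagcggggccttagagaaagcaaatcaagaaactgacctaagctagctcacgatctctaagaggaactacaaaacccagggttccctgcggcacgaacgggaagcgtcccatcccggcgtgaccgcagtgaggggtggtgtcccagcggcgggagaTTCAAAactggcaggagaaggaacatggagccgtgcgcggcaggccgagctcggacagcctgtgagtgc
Sox2, chr3:34649745-34650044, plus strand: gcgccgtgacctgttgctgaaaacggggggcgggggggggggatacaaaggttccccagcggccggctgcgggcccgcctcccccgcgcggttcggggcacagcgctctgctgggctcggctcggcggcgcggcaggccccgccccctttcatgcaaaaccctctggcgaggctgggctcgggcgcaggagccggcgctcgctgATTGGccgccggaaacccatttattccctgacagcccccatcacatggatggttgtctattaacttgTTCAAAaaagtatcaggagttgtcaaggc
Lgr4, chr2:109917397-109917696, plus strand: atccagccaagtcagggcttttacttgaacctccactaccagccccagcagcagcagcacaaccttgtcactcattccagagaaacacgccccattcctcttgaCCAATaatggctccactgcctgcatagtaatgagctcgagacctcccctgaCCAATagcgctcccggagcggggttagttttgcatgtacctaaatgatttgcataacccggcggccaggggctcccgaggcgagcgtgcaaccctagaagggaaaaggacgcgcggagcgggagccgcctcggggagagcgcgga
Tnfrsf19, second start, chr14:61037938-61038237, minus strand: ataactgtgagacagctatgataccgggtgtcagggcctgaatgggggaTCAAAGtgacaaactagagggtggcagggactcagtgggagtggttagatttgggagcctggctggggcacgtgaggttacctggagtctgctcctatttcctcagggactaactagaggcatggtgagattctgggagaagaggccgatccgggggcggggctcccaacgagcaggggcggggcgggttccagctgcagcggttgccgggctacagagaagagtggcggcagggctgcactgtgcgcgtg

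The Iqgap3 window holds 1 TTTGAA match, 19 bases before the start and read on the opposite strand. The Sox2 window holds 1 TTTGAA match and 1 CCAAT match, the Lgr4 window 2 CCAAT matches and the Tnfrsf19 window 1 CTTTGA match. Over all 32851 windows of the table, 37.4% hold CCAAT, 17.9% TTTGAA, 16.0% CTTTGA and 5.17% TTTNNCGC. Of the 9 windows of the listed genes, 6 hold CCAAT, 2 hold TTTGAA and 1 holds CTTTGA. For comparison, 16 of 18 windows of the proliferation genes described below hold CCAAT and 9 of 18 hold TTTGAA. A match of this kind is a description of the letters and not of a bound site.

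A library held 20.7 to 27.9 mega-counts (M), and levels are given as counts per M (CPM) after scaling by trimmed means (TMM). A level of 3 counts, the smallest taken as seen, lay between 0.107 and 0.166 CPM. The targeted genes followed the labels: against control, Atp4b was lower in ATP4B-DTR (−2.93 ± 0.38 log2 units, SE) and GIF/ATP4B-DTR (−3.98 ± 0.40), and Gif was lower in GIF-DTR (−3.36 ± 0.73) and GIF/ATP4B-DTR (−3.59 ± 0.73), all past an edgeR adjusted p of 0.05. The call for Gif in GIF-DTR was lost without control 2 (−2.26, edgeR adjusted p = 0.107), with a Y-linked covariate (−2.76, 0.289) and without the 4 samples of highest antral content described below (−2.98, 0.149). Genes of the Y chromosome were expressed in both controls, ATP4B-DTR 1 and GIF/ATP4B-DTR 1 to 3 and not in ATP4B-DTR 2 and 3 or GIF-DTR 1 to 3, so in GIF-DTR against control the line and Y-linked expression cannot be told apart. A covariate for Y-linked expression varies within ATP4B-DTR alone. With it, ATP4B-DTR against control becomes ATP4B-DTR 1 alone against the controls, GIF-DTR against control rests on the difference of ATP4B-DTR 1 from ATP4B-DTR 2 and 3, and GIF/ATP4B-DTR against control does not draw on it.

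The summed level of parietal cell markers, most of it Atp4a and Atp4b, was also lower in the line named for chief cells. Their sum over 5 genes was 16900 and 15900 CPM in controls 1 and 2, 7200 to 9380 CPM in GIF-DTR, 3050 to 4350 CPM in ATP4B-DTR and 1010 to 2390 CPM in GIF/ATP4B-DTR. In GIF-DTR 2 of the 5 were called lower, beside 6.82% of all genes. Kcnq1 and Kcne2 were not called, at means of 142 and 189 CPM in control and 124 and 174 CPM in GIF-DTR. Atp4b was not called either (−0.71 ± 0.37, edgeR adjusted p = 0.224). The 2 called were the proton pump subunit Atp4a (−1.13 ± 0.32, edgeR adjusted p = 0.0338) and the anion transporter Slc26a7 (−1.64 ± 0.44, 0.0325). Both calls were lost without control 1 (edgeR adjusted p = 0.112 and 0.124), control 2 (0.0979 and 0.102), GIF-DTR 2 (0.0892 and 0.0870) or GIF-DTR 3 (0.0954 and 0.110) and with the Y-linked covariate (0.204 and 0.184). That of Atp4a was also lost without GIF-DTR 1 (edgeR adjusted p = 0.0654) and without the samples of highest antral content (0.125), and that of Slc26a7 by DESeq2 (adjusted p = 0.0999) and with no filter on low counts (0.0800).

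Each line was compared with control to see which of the 10 genes differ once parietal cells, chief cells or both are targeted. The isthmus gene Stmn1 rose 2.78-fold in ATP4B-DTR, then 3.03-fold for GIF-DTR and 3.13-fold with both receptors. Of the other isthmus genes, Sox2 rose in all 3 lines and Iqgap3 in GIF-DTR and with both receptors. The isthmus genes Runx1 and Lrig1 passed the test in none of the lines. The gland-base genes Lgr5 and Tnfrsf19 had higher means in every line but passed the edgeR test in none, beside controls that differed from each other by 3.99-fold for Lgr5 and 2.90-fold for Tnfrsf19. In bulk tissue, more cells that carry an RNA and more of that RNA per cell cannot be told apart.

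By edgeR's quasi-likelihood test at an adjusted p under 0.05, 3 of the 10 genes were higher in ATP4B-DTR (Stmn1, Sox2, Sox9), where 12.2% of all 14889 genes tested were higher and 9.39% lower. In GIF-DTR 3 were higher (Stmn1, Iqgap3, Sox2), beside 9.97% of all genes higher and 6.82% lower. In GIF/ATP4B-DTR 4 were higher (Stmn1, Iqgap3, Sox2, Lgr4), beside 18.2% of all genes higher and 15.4% lower. None of the 10 was called lower in a line. The median log2 fold change of the 10 was 0.94, 1.17 and 1.15 in the 3 lines in that order, against −0.01, −0.01 and −0.04 over all genes tested. Every sample of the line lay above both controls for 6, 5 and 6 of the 10 genes, against 25.3%, 25% and 29.1% of all genes. The comparisons share the same 2 controls, so the values of one line are not independent of those of another. The 10 genes and the lists read below were chosen with earlier results of these data known. An excess over all genes is therefore a description and not a test.

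**Figure D1:**
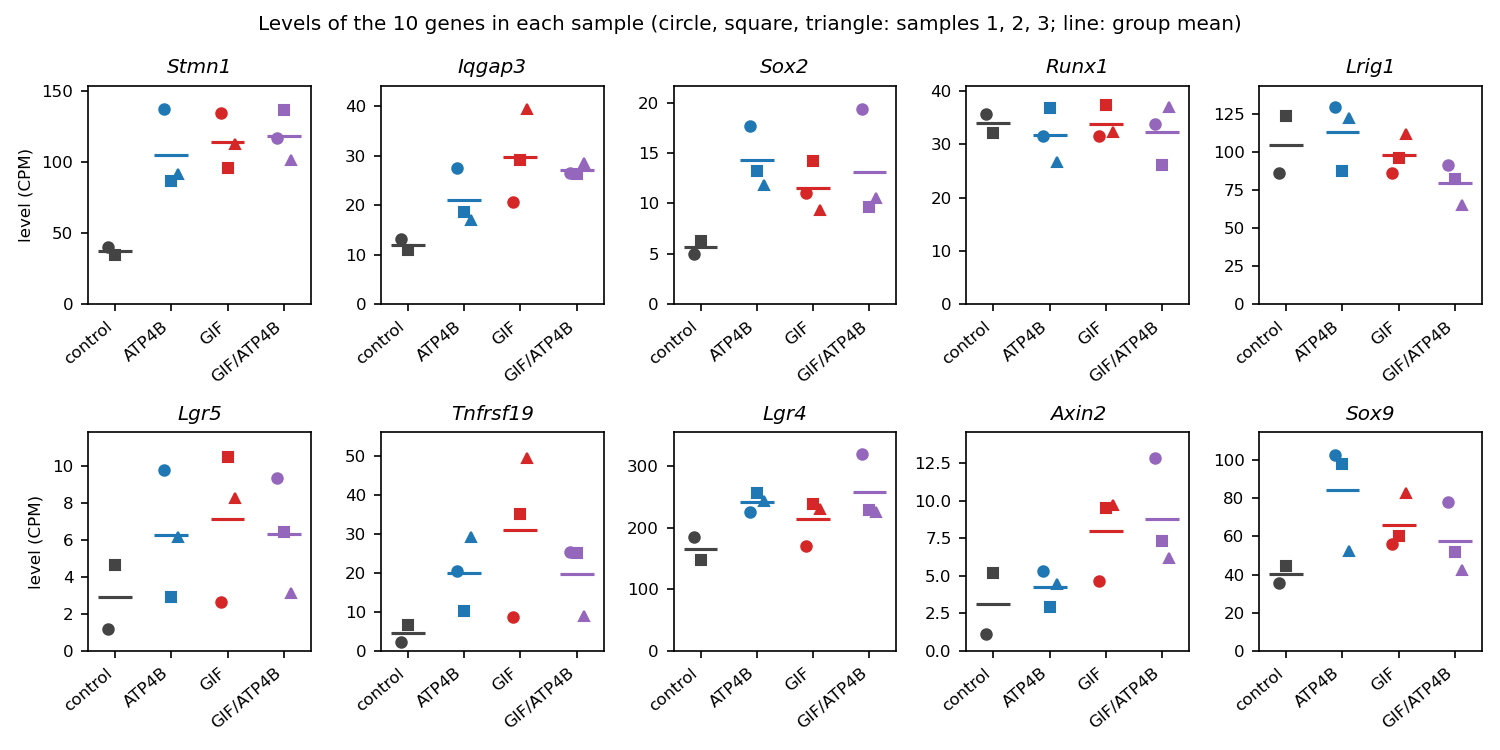
Level of each of the 10 genes in CPM (vertical axes, from 0) in the 11 samples, by group; the upper row holds the isthmus genes and the lower row the gland-base and WNT genes, symbols stand for samples 1 to 3 and lines for group means. All 9 samples of the lines lie above both controls for Stmn1, Sox2, Iqgap3 and Tnfrsf19, while those of Runx1 and Lrig1 lie around the controls.

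Stmn1 encodes stathmin, a protein that destabilises microtubules and is abundant in dividing cells, and it marks cycling progenitors of the isthmus. Its level was 40.3 and 35.0 CPM in controls 1 and 2, then 137, 86.7 and 91.5 CPM in ATP4B-DTR 1 to 3. In GIF-DTR 1 to 3 it was 134, 96.0 and 113 CPM, and in GIF/ATP4B-DTR 1 to 3 it was 117, 136 and 102 CPM. The lowest of the 9 samples of the lines, ATP4B-DTR 2, stood at more than double the higher control, and the lines overlapped one another. The log2 fold change was 1.48 ± 0.23 (SE) in ATP4B-DTR (edgeR adjusted p = 0.00158), 1.60 ± 0.23 for GIF-DTR (0.00193) and 1.65 ± 0.23 for GIF/ATP4B-DTR (0.000389). The call held under each of the 14 alternatives run in each comparison, the omission of each control included, with log2 fold changes from 1.23 to 2.22. Nerve and glia cells can also carry Stmn1. The summed level of 6 of their markers was 13.4 and 23.2 CPM in the controls and 5.44 to 13.3 in ATP4B-DTR. It was 7.02 to 24.4 in GIF-DTR and 5.41 to 12.1 in GIF/ATP4B-DTR. None of the 6 was called higher in a line, beside 12.2%, 9.97% and 18.2% of all genes in the 3 lines in turn. The part of these cells in the Stmn1 difference was not tested.

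Iqgap3 encodes a scaffold protein of the IQGAP family that is active in cell division and marks rapidly cycling isthmus cells. It stood at 13.1 and 10.9 CPM in controls 1 and 2. The ATP4B-DTR samples had 27.6, 18.7 and 16.9 CPM, GIF-DTR samples 20.6, 29.2 and 39.4 CPM and GIF/ATP4B-DTR samples 26.5, 26.2 and 28.6 CPM. Every sample of the lines was above both controls, with the widest spread in GIF-DTR and the narrowest in GIF/ATP4B-DTR. The log2 fold change was 1.31 ± 0.27 in GIF-DTR (edgeR adjusted p = 0.0103) and 1.17 ± 0.27 in GIF/ATP4B-DTR (edgeR adjusted p = 0.00686). In ATP4B-DTR it was 0.81 ± 0.27, which missed the threshold (edgeR adjusted p = 0.0522) and passed it by DESeq2 (0.80, adjusted p = 0.0238), with at least 10 counts asked of every sample (0.80, edgeR adjusted p = 0.0445) and without the samples of highest antral sum (0.94, 0.0290). Without control 2 the calls in GIF-DTR (1.18, edgeR adjusted p = 0.0791) and GIF/ATP4B-DTR (1.04, 0.0679) were lost. Without ATP4B-DTR 3 the value in that line passed (0.94, edgeR adjusted p = 0.0405). With the Y-linked covariate, which leaves ATP4B-DTR 1 alone in that line, the log2 fold change was 1.20.

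Sox2 encodes a transcription factor of foregut epithelium and of adult gastric stem cells. It was 5.03 and 6.27 CPM in controls 1 and 2. In ATP4B-DTR the 3 samples read 17.7, 13.3 and 11.9 CPM, GIF-DTR samples 11.1, 14.2 and 9.32 CPM and GIF/ATP4B-DTR samples 19.3, 9.66 and 10.5 CPM. The lowest sample of the lines, GIF-DTR 3, lay above the higher control. The log2 fold change was 1.34 ± 0.33 in ATP4B-DTR (edgeR adjusted p = 0.0145), 1.03 ± 0.32 for GIF-DTR (0.0493) and 1.22 ± 0.32 for GIF/ATP4B-DTR (0.0137). These calls needed both controls: with control 1 left out the edgeR adjusted p-values were 0.0933, 0.232 and 0.0867, and with control 2 left out 0.0609, 0.12 and 0.0510, at log2 fold changes from 0.88 to 1.50. In GIF-DTR the call was also lost without sample 1 (1.06, edgeR adjusted p = 0.0776), sample 2 (0.85, 0.130) or sample 3 (1.16, 0.0660), with a covariate for Y-linked expression (1.53, 0.124) and with no robust moderation (1.03, 0.0533).

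Squamous cells of the forestomach also carry Sox2. Of 8 squamous markers, Krt5, Trp63 and Krt6a were at 0 in all 11 samples, and the summed level of the list was 0.277 to 0.943 CPM in control, 2.15 to 20.4 in ATP4B-DTR, 0.952 to 1.42 in GIF-DTR and 1.37 to 4.15 in GIF/ATP4B-DTR. Nearly all of the highest value was Krt13, at 20.2 CPM in ATP4B-DTR 2. The 4 samples with the highest Sox2, GIF/ATP4B-DTR 1, ATP4B-DTR 1, GIF-DTR 2 and ATP4B-DTR 2, had 1.01, 13.4, 1.18 and 20.2 CPM of Krt13, and ATP4B-DTR had the highest mean of both genes. The part of squamous cells in the Sox2 difference was not tested.

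Runx1 encodes a transcription factor whose stomach enhancer has been used to trace isthmus stem cells. Its level was 35.8 and 32.1 CPM in controls 1 and 2. Samples of ATP4B-DTR reached 31.6, 36.9 and 26.8 CPM, GIF-DTR samples 31.6, 37.4 and 32.4 CPM and GIF/ATP4B-DTR samples 33.8, 26.2 and 37.0 CPM. The 4 groups overlapped. The log2 fold changes were −0.10 (95% interval −0.44 to 0.25), −0.01 (−0.35 to 0.34) and −0.07 (−0.42 to 0.27) in the same order of lines, so a rise of the size seen for Stmn1 lies outside each interval.

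Lrig1 encodes a transmembrane protein that restrains receptors of the epidermal growth factor family and marks progenitors able to refill the corpus gland. It stood at 86.2 and 124 CPM in controls 1 and 2. ATP4B-DTR samples 1 to 3 had 130, 87.5 and 123 CPM, GIF-DTR samples 86.4, 96.3 and 112 CPM and GIF/ATP4B-DTR samples 91.6, 82.5 and 65.2 CPM. The groups overlapped, and the lowest values were those of GIF/ATP4B-DTR 2 and 3. The log2 fold change was 0.11 ± 0.22, −0.10 ± 0.22 and −0.40 ± 0.22, with edgeR adjusted p-values of 0.752, 0.808 and 0.175. The 95% intervals ended at 0.53, 0.33 and 0.02. Relative to Mki67, a gene of dividing cells, Lrig1 was 0.864 and 1.94 in the controls and 0.347 to 0.719 in the 9 samples of the lines, whereas Stmn1 was 0.404 and 0.549 in the controls and 0.528 to 0.985 in the lines.

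**Figure D2:**
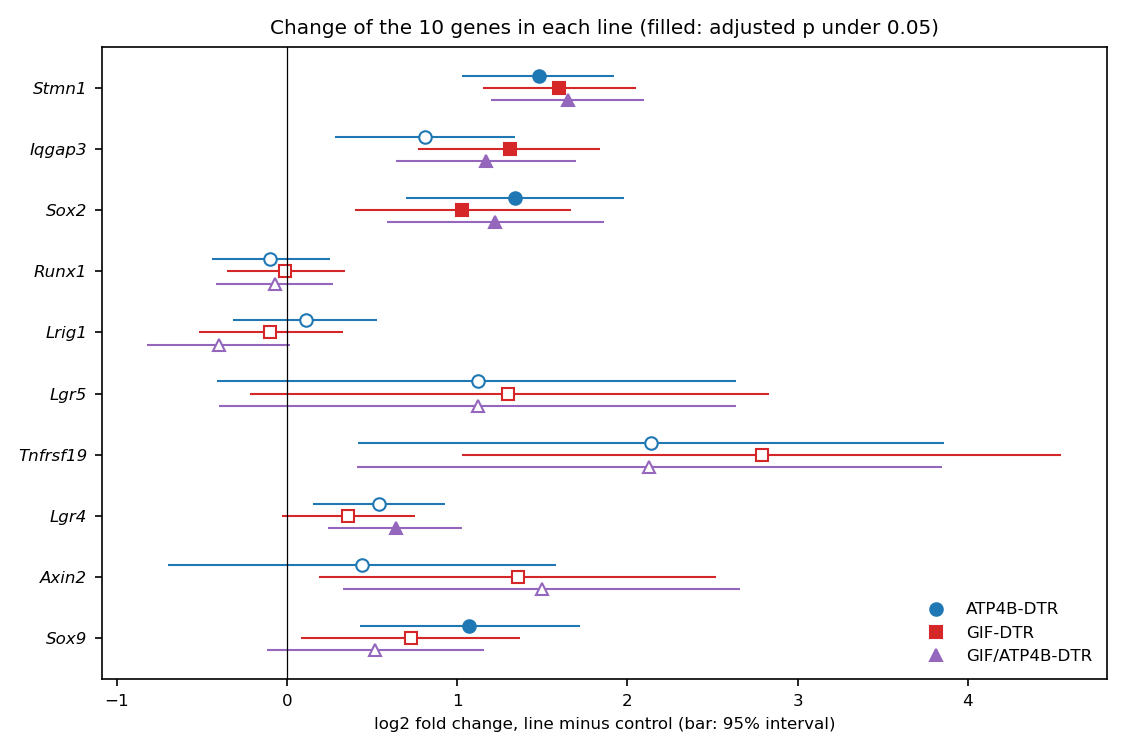
Log2 fold change of each gene (rows) in each line against control (horizontal axis), with bars for the 95% interval and filled symbols for an edgeR adjusted p under 0.05. The Stmn1 symbols lie between 1.48 and 1.65 with short bars, Runx1 and Lrig1 lie near 0, and the bars of Lgr5, Tnfrsf19 and Axin2 are the longest.

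Lgr5 encodes a receptor for R-spondins that marks stem cells at the base of antral glands and a subset of chief cells in the corpus. It was a rare RNA, with 26 to 266 counts in a sample. Its level was 1.17 and 4.66 CPM in controls 1 and 2. The ATP4B-DTR samples had 9.78, 2.90 and 6.13 CPM, GIF-DTR samples 2.65, 10.5 and 8.25 CPM and GIF/ATP4B-DTR samples 9.36, 6.41 and 3.14 CPM. In every line 1 sample lay below control 2. The log2 fold change was 1.12 ± 0.78 in ATP4B-DTR (edgeR adjusted p = 0.341), 1.30 ± 0.78 for GIF-DTR (0.291) and 1.12 ± 0.78 for GIF/ATP4B-DTR (0.288). The 95% intervals, from −0.41 to 2.64 in ATP4B-DTR and alike in the others, hold both no change and a change larger than that of Stmn1. The value rested on the controls: without control 1 it was 0.43, 0.62 and 0.44, and without control 2 it was 2.41, 2.61 and 2.42, and the test was passed in neither case.

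Tnfrsf19 encodes Troy, a receptor of the tumour necrosis factor family that is a WNT target and marks chief cells with stem cell capacity. It stood at 2.34 and 6.76 CPM in controls 1 and 2. In ATP4B-DTR the 3 samples read 20.4, 10.1 and 29.1 CPM, GIF-DTR samples 8.61, 35.0 and 49.5 CPM and GIF/ATP4B-DTR samples 25.3, 25.1 and 8.84 CPM. All 9 samples of the lines lay above both controls, and within GIF-DTR the samples differed by 5.75-fold. The log2 fold changes, 2.14 ± 0.88, 2.79 ± 0.90 and 2.13 ± 0.88, did not pass the edgeR test (adjusted p = 0.12, 0.0678 and 0.0941). They moved with the controls: without control 1 they were 1.56, 2.20 and 1.55 and without control 2 they were 3.08, 3.73 and 3.07, none past the edgeR test. DESeq2 called Tnfrsf19 higher in all 3 lines (adjusted p = 0.0457, 0.00782 and 0.0346). In GIF-DTR it passed the edgeR test as well without GIF-DTR 1 (3.23, adjusted p = 0.0260), with at least 10 counts asked of every sample (2.77, 0.0492) and with no robust moderation (2.79, 0.0373).

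Lgr5 and Tnfrsf19 followed each other from sample to sample, at a Pearson r of 0.90 and a Spearman rho of 0.77 over the 11 samples on the log2 scale. This is a description, since the samples share their groups and the same libraries give both values. Both genes were low in GIF-DTR 1, ATP4B-DTR 2 and GIF/ATP4B-DTR 3, which were the lowest samples of their lines for both. Of 5 chief cell markers, genes of the cells around them at the gland base, 3 were called lower in GIF-DTR (beside 6.82% of all genes), 3 with both receptors (15.4%) and none in ATP4B-DTR (9.39%). The summed level of 5 chief cell markers was 85900 and 192000 CPM in the controls, 17000 to 62000 in ATP4B-DTR, 5110 to 22600 in GIF-DTR and 2820 to 12400 in GIF/ATP4B-DTR.

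Antral glands carry more Lgr5 than corpus glands, so 3 antral markers were read beside it. The sum of Gast, Pdx1 and Nkx6-3 was 0.763 and 0.388 CPM in controls 1 and 2. Samples of ATP4B-DTR reached 1.82, 1.05 and 22.8 CPM, GIF-DTR samples 8.85, 18.9 and 1.67 CPM and GIF/ATP4B-DTR samples 13.4, 2.05 and 3.03 CPM. Gast, the hormone of antral G cells, reached at most 1.94 CPM and was at 0 in 5 samples. Of the 3 markers, 1 was called higher in GIF-DTR, 1 in GIF/ATP4B-DTR and 0 in ATP4B-DTR. Over all genes 9.97%, 18.2% and 12.2% were called higher in those lines. The 3 samples with the highest Lgr5, GIF-DTR 2, ATP4B-DTR 1 and GIF/ATP4B-DTR 1, had antral sums of 18.9, 1.82 and 13.4 CPM. The 3 with the highest Tnfrsf19, GIF-DTR 3, GIF-DTR 2 and ATP4B-DTR 3, had 1.67, 18.9 and 22.8 CPM. With the 4 samples of highest antral sum left out (ATP4B-DTR 3, GIF-DTR 1, GIF-DTR 2 and GIF/ATP4B-DTR 1), the log2 fold changes were 1.10, 1.47 and 0.68 for Lgr5 and 1.74, 3.42 and 1.88 for Tnfrsf19, none past the edgeR test, and 4, 3 and 3 of the 10 genes were called higher, beside 9.08%, 3.38% and 14.6% of all genes in that fit. GIF-DTR 3 alone then stood for its line and was assumed to vary like the other groups, so the values for GIF-DTR are those of 1 sample. With that sample alone, Sox2 missed the threshold (0.70, edgeR adjusted p = 0.210) and Sox9 passed it (1.02, 0.0463). The controls differed in other cell types too: control 2 had 330 CPM of 5 stromal markers and 1530 CPM of 4 muscle markers, against 37.9 and 247 CPM in control 1. Endocrine markers were read too. The sum of 5 was 588 and 1200 CPM in controls 1 and 2, 648 to 1950 in ATP4B-DTR, 809 to 1040 in GIF-DTR and 1090 to 1440 in GIF/ATP4B-DTR. Of the 5, 1 was called higher in ATP4B-DTR, 1 in GIF/ATP4B-DTR and 0 in GIF-DTR. Over all genes 12.2%, 18.2% and 9.97% were called higher in those lines. The 1 called was Chgb, a granule protein of these cells, at 9.52 and 20.4 CPM in the controls. ATP4B-DTR samples had 148, 54.2 and 140 CPM (edgeR adjusted p = 0.0186), GIF-DTR samples 17.8, 32.5 and 73.0 CPM (0.165) and GIF/ATP4B-DTR samples 97.8, 73.9 and 85.2 CPM (0.0208). Its calls were lost without control 1 (edgeR adjusted p = 0.0956 in ATP4B-DTR and 0.104 with both receptors), that in ATP4B-DTR without control 2 (0.0562) and that with both receptors with no filter on low counts (0.0557). The part of these cell types in the Lgr5 and Tnfrsf19 values was not tested.

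Lgr4, the R-spondin receptor that is broad in the epithelium, was the most abundant of the 10 genes in CPM. It stood at 185 and 147 CPM in controls 1 and 2. ATP4B-DTR samples 1 to 3 had 225, 257 and 242 CPM, GIF-DTR samples 171, 238 and 231 CPM and GIF/ATP4B-DTR samples 319, 229 and 225 CPM. GIF-DTR 1 was the 1 sample of the lines that did not exceed both controls. Lgr4 rose in GIF/ATP4B-DTR (0.64 ± 0.20, edgeR adjusted p = 0.0293), while ATP4B-DTR (0.54 ± 0.20, 0.0745) and GIF-DTR (0.36 ± 0.20, 0.239) missed the threshold, the former passing by DESeq2 (0.53, adjusted p = 0.0309). The call was lost without control 2 (0.48, edgeR adjusted p = 0.209), without GIF/ATP4B-DTR 1 (0.45, 0.0887), without the 4 samples of highest antral sum (0.44, 0.0954) and in a fit of the 2 groups alone (0.67, 0.0604).

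Axin2 encodes a scaffold of the complex that degrades beta-catenin and is itself switched on by WNT signalling. It was 1.12 and 5.16 CPM in controls 1 and 2. The ATP4B-DTR samples had 5.31, 2.90 and 4.47 CPM, GIF-DTR samples 4.68, 9.52 and 9.68 CPM and GIF/ATP4B-DTR samples 12.9, 7.31 and 6.16 CPM. The controls differed by 4.59-fold, and the 3 GIF/ATP4B-DTR samples lay above both. The log2 fold change was 0.44 ± 0.58, 1.36 ± 0.59 and 1.50 ± 0.60, with edgeR adjusted p-values of 0.625, 0.146 and 0.0760. Without control 2 the values in GIF-DTR (2.82, edgeR adjusted p = 0.0349) and GIF/ATP4B-DTR (2.96, 0.0120) passed, and without control 1 they were 0.63 and 0.77. DESeq2 called Axin2 higher in GIF/ATP4B-DTR (1.46, adjusted p = 0.0295).

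Sox9 encodes a transcription factor of WNT-responsive progenitors, best known from the intestinal crypt. Its level was 35.7 and 44.5 CPM in controls 1 and 2. In ATP4B-DTR the 3 samples read 103, 97.9 and 52.6 CPM, GIF-DTR samples 55.9, 60.2 and 82.5 CPM and GIF/ATP4B-DTR samples 78.0, 52.1 and 42.2 CPM. ATP4B-DTR and GIF-DTR lay above both controls, and GIF/ATP4B-DTR 3 lay between them. Sox9 rose in ATP4B-DTR by 1.07 ± 0.33 (edgeR adjusted p = 0.0409), and was 0.73 ± 0.33 (0.158) for GIF-DTR and 0.52 ± 0.32 (0.240) for GIF/ATP4B-DTR. The call in ATP4B-DTR was lost without control 1 (0.93, edgeR adjusted p = 0.180), control 2 (1.24, 0.115), ATP4B-DTR 1 (0.89, 0.116) or ATP4B-DTR 2 (0.95, 0.107). It was also lost with no filter on low counts (1.06, edgeR adjusted p = 0.0831) and in a fit of the 2 groups alone (1.06, 0.0724). With the Y-linked covariate, which leaves ATP4B-DTR 1 alone in that line, the log2 fold change was 1.36.

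Isthmus and gland-base genes were then compared within each sample, as the mean log2(CPM + 0.5) of the 5 isthmus genes minus that of the 2 base genes. On average the difference was smaller in the lines than in control, by less than the controls differed from each other. It was 3.52 and 2.07 in the controls, 1.75, 2.65 and 1.39 in ATP4B-DTR, 2.87, 1.14 and 1.07 in GIF-DTR and 1.52, 1.52 and 2.71 in GIF/ATP4B-DTR. The group means were 2.79 ± 1.03 (SD, n = 2), 1.93 ± 0.65 (n = 3), 1.69 ± 1.02 (n = 3) and 1.92 ± 0.69 (n = 3). Each line had 1 sample above control 2. No p-value is given for this score.

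The isthmus mean itself separated the lines from the controls, at 4.64 and 4.68 in the controls and 5.20 to 5.63 in the 9 samples of the lines. The base mean did not, at 1.12 and 2.61 in the controls and 2.42 to 4.39 in the lines, where GIF-DTR 1, GIF/ATP4B-DTR 3 and ATP4B-DTR 2 lay below control 2. The ratio of Stmn1 to Lgr5 in CPM was 34.5 and 7.52 in the controls, 14.0, 29.9 and 14.9 in ATP4B-DTR, 50.7, 9.17 and 13.6 in GIF-DTR and 12.5, 21.3 and 32.4 in GIF/ATP4B-DTR. Control 1 exceeded 8 of the 9 samples of the lines in this ratio, and control 2 lay below all 9.

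**Figure D3:**
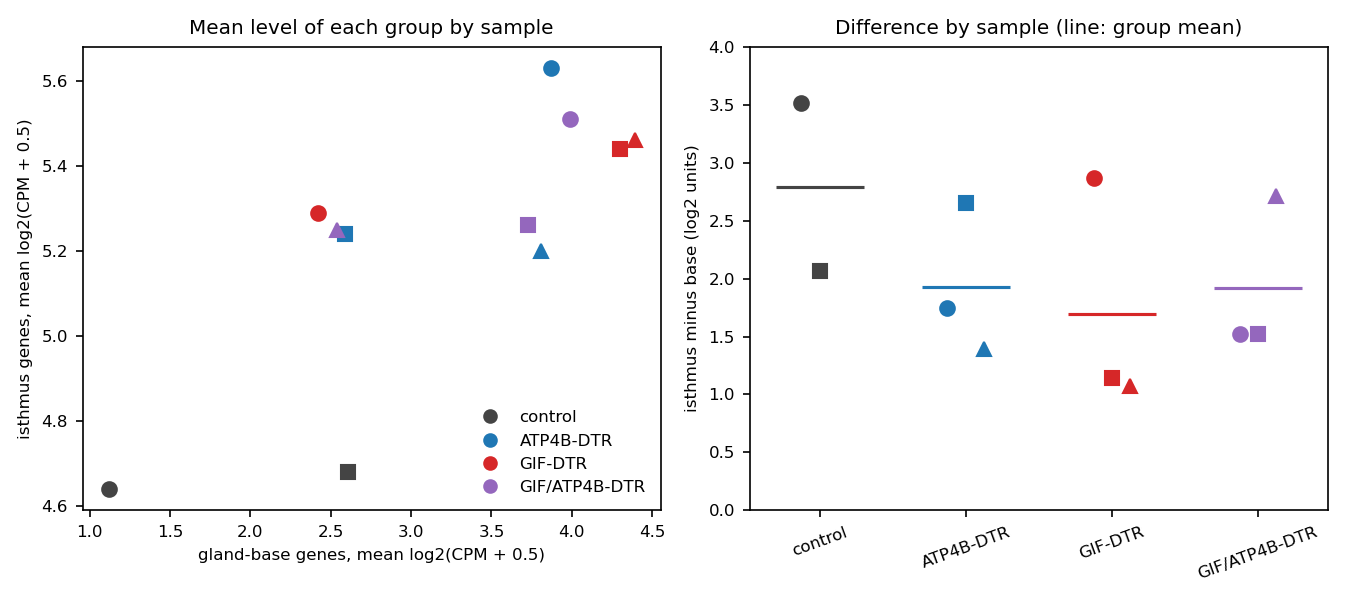
Left, mean log2(CPM + 0.5) of the 5 isthmus genes (vertical axis) against that of the 2 gland-base genes (horizontal axis) in the 11 samples; right, their difference by group, with lines for group means. The controls lie below all samples of the lines on the isthmus axis, at 4.64 and 4.68, and differ from each other by more than 1 log2 unit on the base axis.

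The lines were also compared with one another. None of the 10 genes differed by edgeR at an adjusted p under 0.05 between GIF-DTR and ATP4B-DTR (0.49% of all genes called), between GIF/ATP4B-DTR and ATP4B-DTR (0% called) or between GIF/ATP4B-DTR and GIF-DTR (2.53% called). At an unadjusted p under 0.05 the counts were 0, 1 and 0, beside 9.81%, 10.4% and 18.0% of all genes, and DESeq2 called 0 in each, beside 2.63%, 2.06% and 7.17%. The 1 gene was Lrig1, lower in GIF/ATP4B-DTR than in ATP4B-DTR by −0.51 ± 0.19 (edgeR quasi-likelihood test, adjusted p = 0.382). Axin2 was 1.05 ± 0.51 log2 units above ATP4B-DTR in GIF/ATP4B-DTR (edgeR adjusted p = 0.501), with all 3 samples above the 3 of ATP4B-DTR, and 0.92 ± 0.51 above it in GIF-DTR (0.609). In the former comparison Sox9 differed by −0.55 ± 0.29 (edgeR adjusted p = 0.529). For Stmn1 the 95% intervals between lines ran from −0.25 to 0.50, −0.21 to 0.55 and −0.33 to 0.42, whereas those of Lgr5 and Tnfrsf19 were over 2.5 log2 units wide.

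Levels of different genes can be compared only per length, as CPM divided by the kilobases of each principal transcript. In control the order was Stmn1 (35.6 ± 3.53, SD, n = 2), Lgr4 (32.8 ± 5.28), Lrig1 (21.2 ± 5.38), Sox9 (9.69 ± 1.51), Runx1 (5.79 ± 0.445), Sox2 (2.75 ± 0.425), Iqgap3 (2.09 ± 0.269), Tnfrsf19 (1.12 ± 0.773), Axin2 (0.737 ± 0.670) and Lgr5 (0.618 ± 0.523). The neighbours Stmn1 and Lgr4, Sox2 and Iqgap3, Iqgap3 and Tnfrsf19, Tnfrsf19 and Axin2, and Axin2 and Lgr5 lay within 1 SD of each other's ranges. In the lines Stmn1 stood alone at the top, at 99.1 ± 26.1, 108 ± 18.1 and 112 ± 16.4 CPM per kilobase (n = 3 each), ahead of Lgr4 at 47.7 ± 3.12, 42.1 ± 7.26 and 50.9 ± 10.5. Tnfrsf19 moved up to 4.91 ± 2.34, 7.66 ± 5.12 and 4.87 ± 2.33, near or above Runx1, Sox2 and Iqgap3, while Lgr5 (1.33 to 1.51) and Axin2 (0.992 to 2.06) stayed the lowest group means.

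Genes of the cell cycle were read beside the isthmus genes, since Stmn1 and Iqgap3 are themselves most active in dividing cells. Of 20 proliferation genes, 19 rose in ATP4B-DTR and all 20 in each of the other lines. Over all genes 12.2%, 9.97% and 18.2% were called higher. The median log2 fold changes of the list were 1.65, 1.56 and 1.92. Mki67, the source of the Ki-67 antigen, was 99.7 and 63.9 CPM in the controls and 136 to 233 CPM in the lines. The count in GIF-DTR was 13 of 20 without control 2, beside 2.72% of all genes in that fit. Stmn1, with changes of 1.48 to 1.65, lay within the range of this list, and Runx1 and Lrig1 lay below it.

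Other WNT pathway genes were read next. Of 24 listed, 21 could be tested, and 3 were higher and 1 lower in ATP4B-DTR, 2 higher and 1 lower in GIF-DTR and 5 higher and 1 lower with both receptors, with medians of 0.10, 0.29 and 0.01. Over all genes 12.2%, 9.97% and 18.2% were called higher and 9.39%, 6.82% and 15.4% lower, so these counts lie near the background. Ascl2, a transcription factor of Lgr5-positive stem cells, was at 0.180 and 0.388 CPM in the controls and 1.36 to 8.96 CPM in the lines, and Tcf7, a DNA-binding partner of beta-catenin, went from 0.674 and 1.55 CPM to 2.72 to 9.24 CPM. Both were called higher in all 3 lines (edgeR adjusted p = 0.00164 to 0.0165 for Ascl2 and 0.00272 to 0.0131 for Tcf7). Notum, a secreted enzyme that inactivates WNT proteins, had 0 and 0.166 CPM in the controls, neither above the level of 3 counts. It had 0.237 to 1.45 CPM in the lines, and was called in ATP4B-DTR and GIF/ATP4B-DTR.

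Myc (0.65 ± 0.18, edgeR adjusted p = 0.0163) and Ccnd1 (0.93 ± 0.24, 0.0121), growth genes that WNT signalling can induce, rose in GIF/ATP4B-DTR and missed the threshold in the others. The co-receptor Lrp6 fell in each line, by −0.56 ± 0.13, −0.57 ± 0.13 and −0.60 ± 0.13 (edgeR adjusted p = 0.0131, 0.0165 and 0.00550). The 3 R-spondin genes tested, Rspo1, Rspo3 and Rspo4, which encode ligands of Lgr4 and Lgr5, passed in none of the lines. Rspo4 had 0.0449 CPM in control 1, below the level of 3 counts (0.135 CPM), and 0.222 CPM in control 2. It had 0.263 to 1.33 CPM in the 9 samples of the lines, all above both controls. Its log2 fold change was 2.84 ± 1.00, 2.10 ± 1.00 and 2.46 ± 1.00 (edgeR adjusted p = 0.0639, 0.178 and 0.0782). Rspo3 was 1.21 CPM in control 1 and 6.88 CPM in control 2, the same order of the controls as their stromal markers.

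Among 18 other genes used as gastric or intestinal stem cell markers, 5 were higher and 1 lower in ATP4B-DTR, 4 higher and 1 lower in GIF-DTR and 5 higher and 2 lower in GIF/ATP4B-DTR, beside 12.2%, 9.97% and 18.2% of all genes higher and 9.39%, 6.82% and 15.4% lower. Aqp5, a water channel that marks antral stem cells, had the largest rise of the 4 called in all 3 lines, from 3.10 and 2.05 CPM in the controls to 11.02 to 15.8 CPM in ATP4B-DTR, 14.9 to 24.6 CPM in GIF-DTR and 18.8 to 32.9 CPM in GIF/ATP4B-DTR. Its log2 fold change was 2.40 ± 0.34, 2.90 ± 0.35 and 3.18 ± 0.35 (edgeR adjusted p = 0.00116, 0.00118 and 0.000134), and the call held under each of the 14 alternatives in each line. Cd44, a hyaluronan receptor of regenerating glands (1.24 to 1.75), the transcription factor Sox4 (0.73 to 1.52) and the receptor Ephb2 (1.09 to 1.83), the last of these known from the crypt base, were also called higher in all 3 lines, and Klf5 in ATP4B-DTR (0.83) and GIF/ATP4B-DTR (0.89).

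Cd24a, a surface glycoprotein, fell in ATP4B-DTR (−1.01 ± 0.19, edgeR adjusted p = 0.00456) and with both receptors (−1.08 ± 0.19, 0.00170). Dclk1, which also marks tuft cells, fell in GIF-DTR (−1.14 ± 0.18, edgeR adjusted p = 0.00306) and with both receptors (−0.97 ± 0.18, 0.00206). Bmi1, a chromatin regulator, showed no call at −0.16 to 0.05. Of 13 relatives of the listed genes, Cbfb, the partner subunit of the RUNX factors, rose by 0.36, 0.39 and 0.38, Iqgap2 fell in GIF-DTR (−0.57) and Iqgap1 fell in GIF/ATP4B-DTR (−0.50). That is 1 of 13 called higher in each line, no more than the 12.2%, 9.97% and 18.2% of all genes, and 0, 1 and 1 called lower.

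Several of these list calls depended on 1 library or on the model. In GIF/ATP4B-DTR the calls of Klf5, Sox4, Notum and Iqgap1 were lost without control 1 (edgeR adjusted p = 0.0667 to 0.151), those of Klf5, Ccnd1, Sox4, Cbfb and Myc without control 2 (0.0840 to 0.165), those of Klf5, Sox4, Notum and Iqgap1 without GIF/ATP4B-DTR 1 (0.0512 to 0.0597), that of Iqgap1 without sample 2 (0.0663) and that of Myc without sample 3 (0.0573). In ATP4B-DTR 9 calls were lost without control 1, among them Tcf7, Ascl2 and Lrp6 (edgeR adjusted p = 0.0816 to 0.168), 5 without control 2 (0.0619 to 0.168), and 4, 2 and 3 without samples 1, 2 and 3 (0.0542 to 0.153). In GIF-DTR 7 were lost without control 1, Tcf7, Ascl2 and Lrp6 again among them (edgeR adjusted p = 0.0709 to 0.317), Cbfb (0.138) and Ephb2 (0.0768) without control 2, and 3, 2 and 4 without samples 1, 2 and 3 (0.0501 to 0.116). With the Y-linked covariate, which leaves ATP4B-DTR 1 alone in that line, 6 calls were lost in ATP4B-DTR (Klf5, Notum, Cbfb, Ephb2, Cd24a and Lrp6, edgeR adjusted p = 0.0588 to 0.205), 6 in GIF-DTR (Tcf7, Iqgap2, Cbfb, Ephb2, Dclk1 and Lrp6, 0.0533 to 0.404) and 0 in GIF/ATP4B-DTR. In that sample the log2 fold changes were at least as large as in the whole line for Klf5 (0.87), Ephb2 (1.20) and Lrp6 (−0.61) and smaller for Notum (3.43), Cbfb (0.29) and Cd24a (−0.94). In GIF-DTR those with the covariate were larger for Tcf7 (2.94), Iqgap2 (−0.87), Ephb2 (1.45), Dclk1 (−1.33) and Lrp6 (−0.64) and smaller for Cbfb (0.28). Without the 4 samples of highest antral sum 6, 5 and 4 calls were lost in the 3 lines in turn, and in fits of the 2 groups alone 6, 2 and 3. With no filter on low counts Cd44 and Cbfb were lost in ATP4B-DTR and GIF-DTR and Cbfb in GIF/ATP4B-DTR (edgeR adjusted p = 0.0563 to 0.0819). Aqp5 kept its call in each of these fits.

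**Figure D4:**
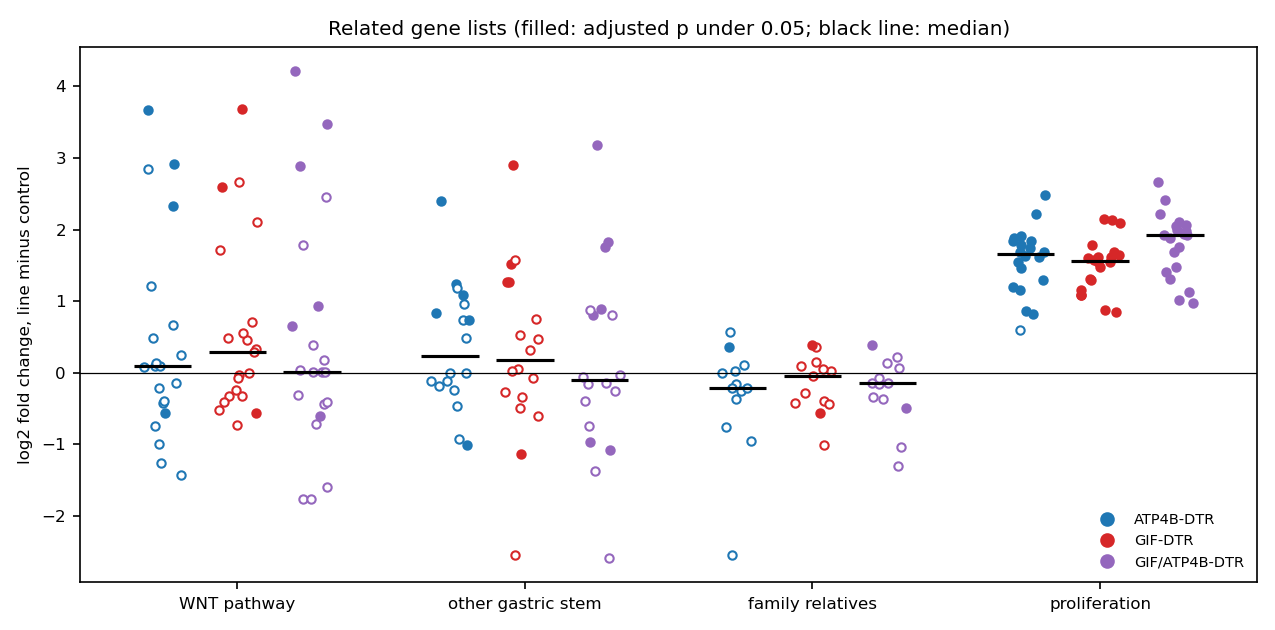
Log2 fold change of the tested genes of 4 related lists (horizontal axis) in each line against control (vertical axis), with filled symbols for an edgeR adjusted p under 0.05 and black lines for list medians. The proliferation genes lie above 0 in every line, with medians of 1.65, 1.56 and 1.92, while the WNT, other stem and family lists have medians between −0.21 and 0.29.

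The genes whose log2 levels were most like those of 4 members over the 11 samples were sought among 9413 to 9414 genes with a mean of at least 8 CPM. For Stmn1 they were Smc3 (r = 0.97), Lage3 (0.97) and Raly (0.97), and for Iqgap3 Hnrnpl (0.97), Brca1 (0.97) and Adprhl2 (0.94). For Lgr5 they were Cdo1 (0.91), Soat1 (0.90) and Tnfrsf19 (0.90), and for Tnfrsf19 Isl1 (0.93), Pold1 (0.92) and Glcci1 (0.92). Among the 10 genes themselves, the highest values after Lgr5 with Tnfrsf19 were Lgr5 with Axin2 (0.84), Stmn1 with Iqgap3 (0.81) and Tnfrsf19 with Axin2 (0.80). Runx1 had values between −0.38 and 0.06 with each of the others. These values describe the samples, which share their groups and controls.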

How the data were processed

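Bulk RNA-seq of corpus mucosa was analysed from the authors' deposited table. Its values are expected counts per gene, as deposited: read from the values, reads were divided between genes and not normalized. RNA was isolated on columns and made into stranded libraries from messenger RNA, per the labels' protocols. The genome build was mm10, per the submitters' processing notes; the aligner and counter are not given in the sources used here. Of the nonzero entries, 30.7% were fractional, and counts were rounded before fitting. No 2 columns were identical. Symbols matched 34582 identifiers (99.2%); Gif is the older symbol of Cblif.

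Genes were kept by filterByExpr, libraries were scaled by TMM, and the edgeR 4.0.16 quasi-likelihood test with robust moderation (R 4.3.3) was fitted to all 11 samples with 1 coefficient per genotype, after it was tested on simulated data. P-values were adjusted by Benjamini-Hochberg over all 14889 tested genes, and an adjusted p under 0.05 is a call. Intervals are 95%, from the log2 fold change and 1.96 SE. The common biological coefficient of variation was 26.6%. Floors cover counting error only.

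Named genes are the 10 members, the targeted genes and the 3 genes most like Lgr5, Tnfrsf19, Stmn1 and Iqgap3. Genes of the WNT, other stem, relative and proliferation lists are named if called or among the 4 most abundant. Rspo1, Rspo3, Rspo4, Bmi1, Atp4a, Slc26a7, Kcnq1, Kcne2 and Chgb were named after their values were seen. The members and lists were chosen with earlier results of these data known. Alternatives were DESeq2 1.42.0, other scalings and filters, no robust moderation, the 2 groups alone, a Y-linked covariate, other pseudocounts and gene sets for the isthmus score, and leaving out each sample; with 1 sample of a group left, it is assumed to vary like the other groups. Leaving out the 4 samples of highest antral sum was added after seeing the data.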

Additional observations from a re-analysis of the deposited data

Results flagged for a closer look

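None of the 10 genes differed between lines past the edgeR threshold. Of the 18 other stem cell markers, 1 was called in GIF-DTR against ATP4B-DTR (beside 0.49% of all genes). In GIF/ATP4B-DTR, 0 were called against ATP4B-DTR (0%) and 1 against GIF-DTR (2.53%). The Dclk1 level of GIF-DTR minus that of ATP4B-DTR was −0.91 on the log2 scale (edgeR adjusted p = 0.0380), at 11.1, 12.7 and 9.56 CPM against 19.2, 25.7 and 17.9 CPM. The Ephb3 level of GIF/ATP4B-DTR minus that of GIF-DTR was −0.70 on the log2 scale (edgeR adjusted p = 0.0202), at 30.8, 35.7 and 30.5 CPM against 53.6, 47.6 and 56.0 CPM. Both differences came from a direct test between the lines. GIF-DTR differs from the other line in Y-linked expression in both comparisons, in 1 of 3 ATP4B-DTR samples and in all 3 GIF/ATP4B-DTR samples; with a Y-linked covariate the values were −0.97 for Dclk1 (edgeR adjusted p = 0.115), which sets GIF-DTR against ATP4B-DTR 2 and 3, and −1.01 for Ephb3 (0.22), which rests on the difference of ATP4B-DTR 1 from ATP4B-DTR 2 and 3. The Dclk1 call was lost in 9 of 16 alternatives: besides the covariate, without ATP4B-DTR 1 (−0.96, edgeR adjusted p = 0.114), ATP4B-DTR 2 (−0.73, 0.158), GIF-DTR 1 (−0.91, 0.143), GIF-DTR 2 (−1.02, 0.0624) or GIF-DTR 3 (−0.80, 0.177), in the 2 groups alone (−0.91, 0.102), in samples without Y-linked expression (−0.99, 0.216) and without the 4 samples of highest antral sum (−1.24, 0.216). The Ephb3 call was lost in 6 of 15: besides the covariate, without GIF-DTR 1 (−0.68, edgeR adjusted p = 0.0708), GIF-DTR 3 (−0.67, 0.0837), GIF/ATP4B-DTR 1 (−0.66, 0.0658) or GIF/ATP4B-DTR 3 (−0.66, 0.105) and without the 4 samples of highest antral sum (−0.75, 0.378).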

How the results depend on the processing

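The number of the 10 genes called higher in ATP4B-DTR was 3, became 6 by DESeq2 (beside 14.6% of all genes), and ranged from 1 (without control 1, beside 8.43%, and without control 2, beside 3.51%) to 4 (without ATP4B-DTR 3, beside 11.6%) when 1 sample was left out. In GIF-DTR it stayed between 2 and 4 over the 14 alternatives, in which 2.18% to 13.0% of all genes were called higher, and in GIF/ATP4B-DTR, at 4, it ranged from 2 (without control 2, beside 8.91%) to 4 when 1 sample was left out and became 6 by DESeq2 (beside 20.1%). Stmn1 kept its call throughout. Directions that turned belonged to values that passed no test. With a Y-linked covariate, Lrig1 in GIF-DTR against control was 0.21 and Axin2 in GIF/ATP4B-DTR against GIF-DTR was −0.39. Without the 4 samples of highest antral sum these were 0.06 and −0.51, and Lrig1 in GIF-DTR against ATP4B-DTR was 0.03. With 1 sample left out, Lrig1 against control ranged from −0.13 to 0.39 in ATP4B-DTR and −0.33 to 0.19 in GIF-DTR, Axin2 from −0.29 to 1.90 in ATP4B-DTR, Runx1 from −0.22 to 0.01, −0.09 to 0.08 and −0.18 to 0.06 in the 3 lines in turn, and Axin2 in GIF/ATP4B-DTR against GIF-DTR from −0.24 to 0.34. The cause was not tested. With Lgr4, Axin2 and Sox9 added to the base genes, the isthmus minus base means were 1.05, 0.69, 0.56 and 0.58 in control and the 3 lines in the same order, since Lgr4 and Sox9 are more abundant than Lgr5. Over all genes, calls in GIF-DTR against control numbered 2500, or 438 with the Y-linked covariate, 871 without control 2 and 691 without the 4 samples of highest antral sum, where 1 GIF-DTR sample remained. No paired analysis was possible because the replicate numbers of the lines follow only the order of the samples. Counts in a sample were 26 to 266 for Lgr5, 25 to 319 for Axin2 and 52 to 1247 for Tnfrsf19, and there were 2 controls.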
